A study of Drosophila melanogaster with 35 samples.

Results

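The transcripts described here are those of the Drosophila melanogaster wing with a higher mean at 36h than at 24h in control pupae. At 36h they stood close to the control level in both transgene lines. They were chosen by the group means of log2 intensity on the arrays of 5 groups, control at L3, 24h and 36h and both transgene lines at 36h. A transcript had to average at least 8 in control at 36h, to differ by less than 1 between 24h and L3 in control, and to stand at least 1.5 higher at 36h than at 24h in control. Its 36h means in both transgene lines had to lie within 0.5 of the control mean. Of 15473 transcripts 242 met the control criteria, here called onset transcripts, and 7 met all of them. The 7 are FBtr0075437, FBtr0076953, FBtr0077172, FBtr0083927, FBtr0084207, FBtr0085242 and FBtr0086128, named here by their FlyBase transcript IDs. Onset stands for the control criteria and not for absence before 36h. In control wings FBtr0077172 already averaged 12.80 at L3, and FBtr0084207 averaged 8.795 at L3 and 9.58 at 36h. The gene table used here pairs none of them with a gene, so no gene name, role, position or sequence is given for any.

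The study compared overexpression of a cell cycle factor pair, dE2F1+dDP, and of Cabut (Cbt) with a control strain on 35 arrays, each hybridised with RNA of 10 dissected wings. The dE2F1+dDP animals carried apterous-gal4, UAS-GFP and a temperature-sensitive Gal80 under the tubulin promoter, with UAS-dE2F1 and UASdDP added. The Cbt animals carried the same driver, reporter and repressor with UAS-Cabut, and the control animals had these shared elements and no further transgene. Animals were kept at 18 °C, where Gal80 blocks Gal4, and then at 28 °C, where Gal4 can act. The wings are from wandering larvae of the last instar (L3) and from pupae at the times labelled 24h and 36h. There were 4 arrays in each of the groups except dE2F1+dDP at L3, which had 3 because the submitters left out 1 of its samples for quality. The apterous driver is active in dorsal wing cells, so the RNA also held that of ventral cells, and fewer cells of a type and less RNA per cell cannot be told apart.

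In the fly wing, cells divide through larval life and the early pupa and then leave the cell cycle, and the epithelium goes on to form hairs and to lay down cuticle. E2F1 with its partner DP is a transcription factor pair that switches on genes of DNA replication and of entry into mitosis. Cabut is a zinc finger transcription factor of the Krüppel-like family. Transcripts that come up late in the pupal wing accompany its differentiation after the last divisions.

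Arrays differed in how close they stood to the rest of their group, which bears on every 24h value. Array medians ran from 9.25 to 10.02 on the log2 scale. Replicate 3 of dE2F1+dDP at 24h and replicate 3 of control at 24h had the lowest medians, 9.25 and 9.28, and the largest root mean square differences from the rest of their groups, 0.91 and 0.88. The next largest difference of any array was 0.70. Of the 7 transcripts, 4 had the lowest value of their group on the first of these arrays and 3 on the second. Results that use them are given with and without them where this changes a call. Up to 4 array names shared a number, taken here to be that of a slide, which no label states. There were 9 such slides, and only slide 6 held both groups of a tested pair, with 1 array each.

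Closeness to control at 36h was less frequent among onset transcripts than over all transcripts in both transgene lines, and rare in dE2F1+dDP wings. Of the 242 onset transcripts, 9 (3.72%) stood within 0.5 of control in dE2F1+dDP wings and 102 (42.1%) did in Cbt wings. Over all 15473 transcripts these shares were 69.8% and 82.4%. Of the 242, 231 in dE2F1+dDP wings stood at least 0.5 below control and 2 stood at least 0.5 above it, with a median difference of -1.91. In Cbt wings 134 stood at least 0.5 below and 6 above, with a median of -0.61. Both differences are taken from the same control arrays. The 242 were chosen for a high mean on these arrays, so the choice by itself favours values below control in both lines. They use the arrays of the rule and are given as a description with no test.

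**Figure D1:**
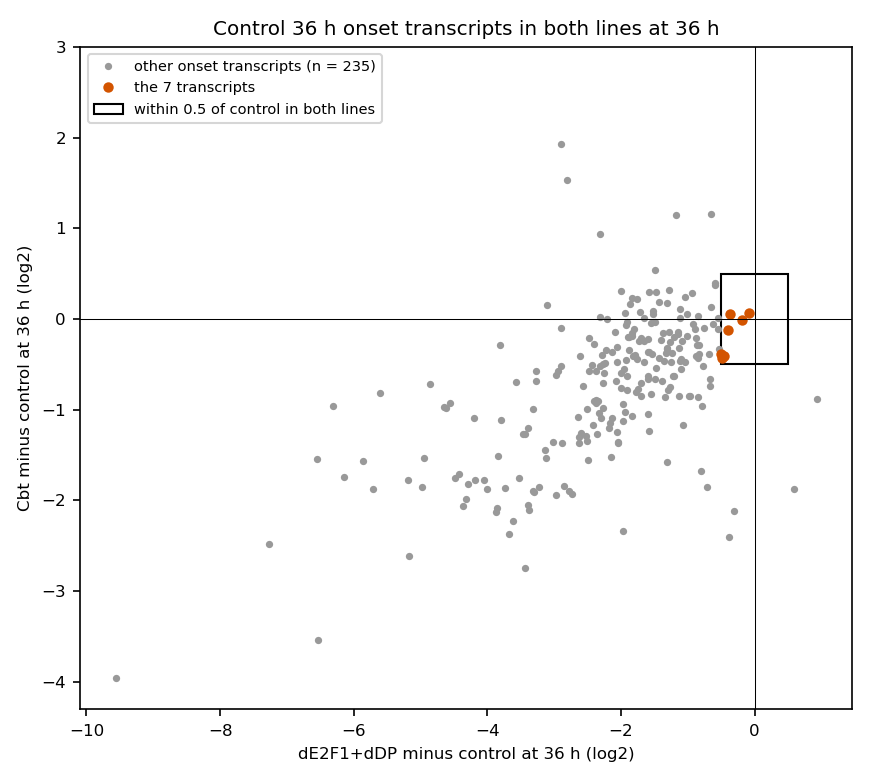
Each point is one of the 242 control onset transcripts, with the difference of dE2F1+dDP from control at 36h on the x axis and that of Cbt from control on the y axis, both in log2 units. The 7 transcripts lie in the left part of the box that marks 0.5 on either side of 0, and most other points lie to its left.

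All 7 had a lower 36h mean in dE2F1+dDP than in control wings, with a difference of -0.09 (SE 0.49) for FBtr0077172 at the near end and -0.50 (SE 0.33) for FBtr0086128 at the far end, with a median of -0.39. In Cbt wings 5 of the 7 had a lower mean, and the differences ran from -0.43 for FBtr0084207 to 0.07 for FBtr0077172. For FBtr0076953 and FBtr0086128 every dE2F1+dDP array at 36h lay below every control array, as was the case for 219 of the 242 onset transcripts and 15.3% of all transcripts. None of the 7 had Cbt arrays at 36h that all lay on one side of the control arrays, against 76 of the 242 and 11.8% of all transcripts. The rule used these arrays, so the counts are a description. The transcript nearest to the limit on the outer side differed by 0.54 in dE2F1+dDP wings, against 0.50 for the member nearest to it on the inner side.

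The 7 transcripts covered a wide range of levels at 36h. FBtr0077172 was the brightest, at 14.69 ± 0.15 in dE2F1+dDP, 14.84 ± 0.22 in Cbt and 14.78 ± 0.11 in control wings (SD, n = 4 each), above 95.1%, 96.1% and 95.5% of transcripts. FBtr0086128 and FBtr0085242 stood between 61.9% and 73.1% of the ranking in every line at 36h. The remaining 4, FBtr0084207, FBtr0083927, FBtr0075437 and FBtr0076953, had 36h means between 8.12 and 9.58 in the 3 lines. These ranks set different transcripts' intensities side by side, and probes differ in brightness, so they do not measure the abundance of one transcript against another.

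**Figure D2:**
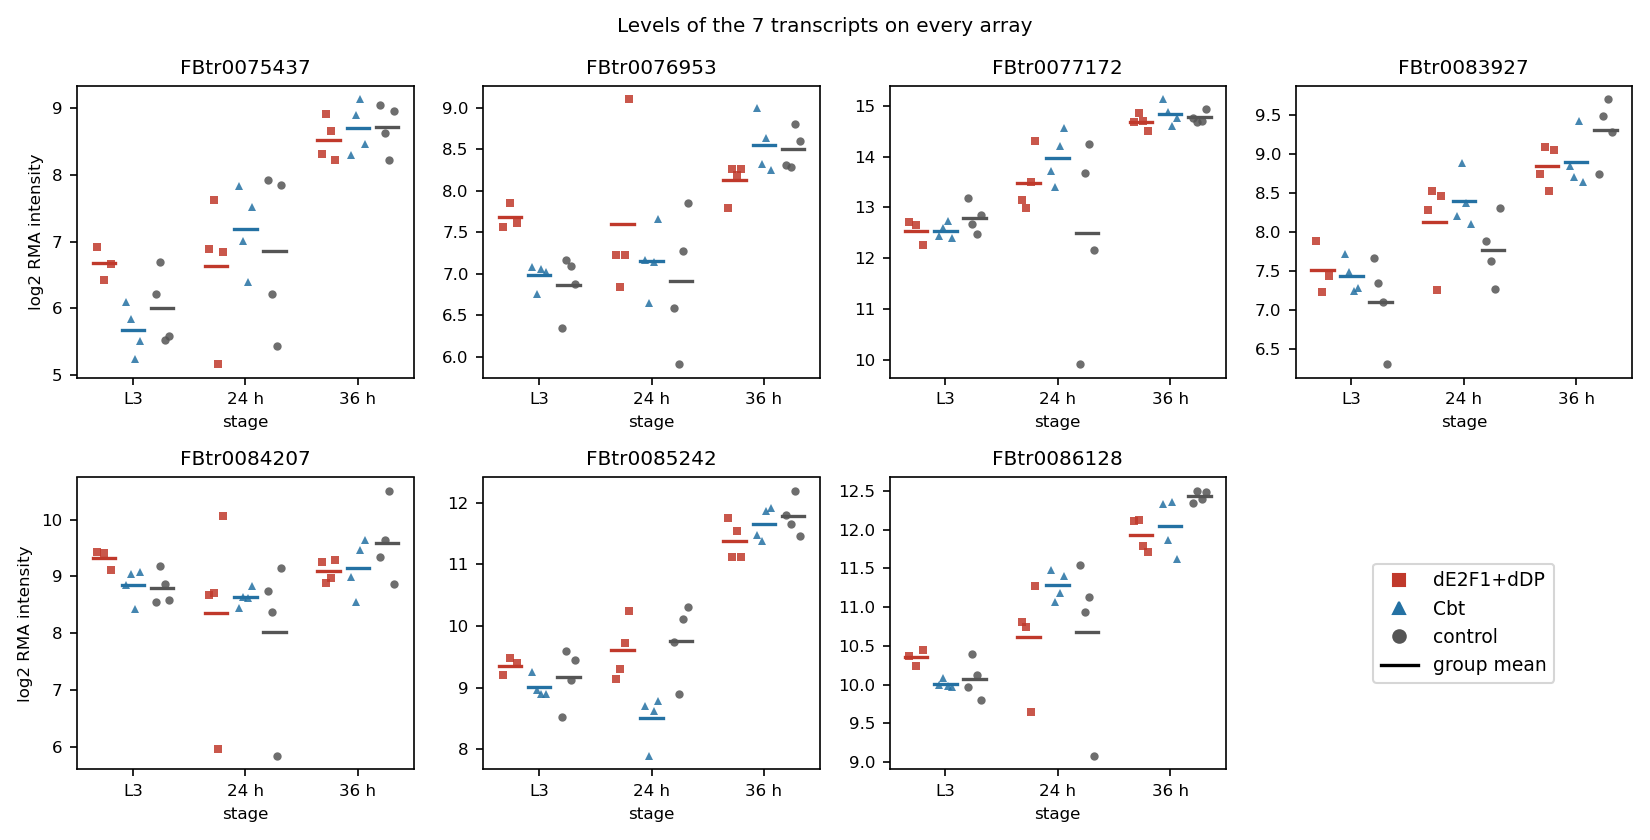
Each panel shows one transcript, with the stage on the x axis and log2 RMA intensity on the y axis. Points are single arrays (dE2F1+dDP left, Cbt middle, control right at each stage), and bars are group means. For each transcript the arrays lie closer together at 36h than at 24h in control and dE2F1+dDP wings. The gap is small for FBtr0083927 in control wings (SD 0.41 at 36h and 0.44 at 24h).

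FBtr0086128 was already higher at 24h than at L3 in Cbt wings. At L3 it read 10.37, 10.24 and 10.45 in dE2F1+dDP, 9.998, 10.08, 9.98 and 9.96 in Cbt and 9.97, 10.39, 10.12 and 9.80 in control wings. At 24h it read 10.80, 10.74, 9.65 and 11.28 in dE2F1+dDP, 11.48, 11.07, 11.18 and 11.40 in Cbt and 11.55, 10.94, 11.13 and 9.08 in control wings. At 36h it read 12.11, 12.13, 11.79 and 11.71 in dE2F1+dDP, 12.33, 11.87, 12.36 and 11.63 in Cbt and 12.34, 12.50, 12.39 and 12.49 in control wings. The Cbt arrays of 24h all lay above those of L3 with a narrow spread, while 1 dE2F1+dDP array and 1 control array of 24h lay below all L3 arrays of their own line. All other dE2F1+dDP and control arrays of 24h lay above the L3 arrays of their line. The Cbt level at 24h exceeded that at L3 by 1.28 (SE 0.33, limma adjusted p = 0.00263), a 2.42-fold rise, and passed under all 15 alternatives (adjusted p 8.19e-05 to 0.0364). In dE2F1+dDP wings the same change was 0.27 (SE 0.35, adjusted p = 0.694), or 0.59 without replicate 3 of 24h (limma adjusted p = 0.308).

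FBtr0083927 also rose by 24h in Cbt wings. At L3 it read 7.89, 7.22 and 7.43 in dE2F1+dDP, 7.71, 7.49, 7.24 and 7.28 in Cbt and 7.67, 7.34, 7.09 and 6.30 in control wings. At 24h it read 8.28, 8.53, 7.26 and 8.47 in dE2F1+dDP, 8.21, 8.89, 8.37 and 8.10 in Cbt and 7.89, 7.62, 7.27 and 8.31 in control wings. At 36h it read 8.75, 9.10, 8.52 and 9.05 in dE2F1+dDP, 8.85, 8.70, 9.43 and 8.64 in Cbt and 8.75, 9.49, 9.71 and 9.29 in control wings. No Cbt array of 24h overlapped with those of L3, whereas in dE2F1+dDP wings replicate 3 lay within the L3 range and the other 3 arrays above it. The change was 0.96 in Cbt wings (SE 0.29, limma adjusted p = 0.00957), and it passed under all 15 alternatives (adjusted p 0.00294 to 0.0468). The change in dE2F1+dDP wings was 0.62 (SE 0.31, adjusted p = 0.195), and without dE2F1+dDP replicate 3 of 24h it was 0.91 and passed (adjusted p = 0.0352).

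FBtr0075437 was the dimmest of the 7 at L3. Its L3 values were 6.92, 6.42 and 6.67 in dE2F1+dDP, 6.09, 5.83, 5.24 and 5.51 in Cbt and 6.22, 6.69, 5.52 and 5.58 in control wings. Its 24h values were 6.88, 7.63, 5.16 and 6.84 in dE2F1+dDP, 7.83, 7.005, 6.39 and 7.51 in Cbt and 7.93, 6.21, 5.42 and 7.85 in control wings. Its 36h values were 8.31, 8.91, 8.67 and 8.22 in dE2F1+dDP, 8.30, 8.90, 9.14 and 8.47 in Cbt and 9.05, 8.63, 8.22 and 8.96 in control wings. The Cbt and control means at L3, 5.67 ± 0.37 and 6.001 ± 0.56 (SD, n = 4 each), lay under 6.19, the level below which 25% of all transcripts averaged over the arrays. The lowest 24h values, 5.16 and 5.42, came from the dE2F1+dDP and control arrays that stood apart. In Cbt wings the 24h level exceeded that of L3 by 1.52 (SE 0.45, limma adjusted p = 0.00994), without overlap of the arrays, and the call was lost when the slide entered the model (1.39, adjusted p = 0.125). In dE2F1+dDP wings the change was -0.043 (adjusted p = 0.968), or 0.45 without replicate 3 of 24h (adjusted p = 0.66).

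FBtr0077172 showed the widest scatter in control wings at 24h. At L3 its values were 12.71, 12.65 and 12.27 in dE2F1+dDP, 12.43, 12.60, 12.72 and 12.40 in Cbt and 13.18, 12.68, 12.48 and 12.85 in control wings. At 24h its values were 13.14, 12.99, 13.51 and 14.31 in dE2F1+dDP, 13.72, 13.39, 14.22 and 14.57 in Cbt and 9.91, 13.67, 14.25 and 12.17 in control wings. At 36h its values were 14.69, 14.86, 14.70 and 14.51 in dE2F1+dDP, 15.13, 14.88, 14.60 and 14.76 in Cbt and 14.76, 14.69, 14.71 and 14.94 in control wings. Of the control arrays of 24h, those at 9.91 and 12.17 lay below all control arrays of L3 and those at 13.67 and 14.25 above them. In both transgene lines all arrays of 24h lay above those of L3 and below those of 36h. The change by 24h was 1.44 in Cbt wings (SE 0.49, limma adjusted p = 0.025). That call was lost when the slide entered the model (1.55, adjusted p = 0.155) and when arrays were centred on their medians (1.26, adjusted p = 0.0744). It was also lost without Cbt replicate 3 or 4 of 24h or replicate 1 or 4 of L3, where the change was 1.24 to 1.402 and the adjusted p 0.0531 to 0.0859. In dE2F1+dDP wings the change was 0.95 (SE 0.53, adjusted p = 0.263).

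FBtr0085242 was lower at 24h in Cbt than in dE2F1+dDP wings, the 1 of the 7 that passed that test. Its L3 values were 9.20, 9.47 and 9.40 in dE2F1+dDP, 9.25, 8.96, 8.90 and 8.89 in Cbt and 8.53, 9.60, 9.13 and 9.46 in control wings. Its 24h values were 9.14, 9.31, 9.73 and 10.24 in dE2F1+dDP, 8.71, 7.89, 8.63 and 8.78 in Cbt and 9.74, 8.90, 10.11 and 10.30 in control wings. Its 36h values were 11.76, 11.12, 11.55 and 11.12 in dE2F1+dDP, 11.47, 11.38, 11.87 and 11.91 in Cbt and 11.80, 11.66, 12.19 and 11.47 in control wings. All Cbt arrays of 24h lay below all dE2F1+dDP and control arrays of 24h and below all Cbt arrays of L3, and at 36h the lines overlapped. On slide 6, which held 1 Cbt and 1 dE2F1+dDP array of 24h, Cbt minus dE2F1+dDP was -0.51. Over all arrays the level at 24h was lower in Cbt than in dE2F1+dDP wings, with a difference of -1.10 (SE 0.27, limma adjusted p = 0.00276), and it passed under all 15 alternatives (adjusted p 0.000484 to 0.041). The change within Cbt wings by 24h, -0.50 (SE 0.27, adjusted p = 0.178), did not pass. The difference between 36h and 24h was 3.16 in Cbt wings, the largest of the 7 in any line, against 1.78 in dE2F1+dDP and 2.02 in control wings.

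FBtr0076953 and FBtr0084207 passed none of the tests in the unweighted model of all 9 groups. FBtr0076953 read 7.57, 7.86 and 7.61 in dE2F1+dDP, 7.09, 6.76, 7.05 and 7.03 in Cbt and 6.35, 7.16, 7.10 and 6.88 in control wings at L3. At 24h it read 7.22, 6.85, 7.23 and 9.10 in dE2F1+dDP, 7.17, 6.65, 7.14 and 7.66 in Cbt and 6.59, 5.91, 7.27 and 7.86 in control wings, and at 36h 7.80, 8.26, 8.18 and 8.26 in dE2F1+dDP, 8.997, 8.32, 8.64 and 8.25 in Cbt and 8.31, 8.29, 8.80 and 8.60 in control wings. One dE2F1+dDP array of 24h, at 9.10, exceeded every dE2F1+dDP array of 36h, and the other 3 lay below the L3 arrays of that line. The L3 and 36h means were 7.68 and 8.12 in dE2F1+dDP, 6.98 and 8.55 in Cbt and 6.87 and 8.50 in control wings. At L3 all dE2F1+dDP arrays lay above all control and all Cbt arrays, a difference of -0.70 for Cbt minus dE2F1+dDP (SE 0.38, limma adjusted p = 0.579). That difference passed with array weights (adjusted p = 0.0141) and with only the compared groups modelled (adjusted p = 0.0165).

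FBtr0084207 was the member whose arrays of 36h and 24h overlapped in all 3 lines. Its L3 values were 9.43, 9.41 and 9.11 in dE2F1+dDP, 8.86, 9.04, 8.42 and 9.07 in Cbt and 8.55, 9.18, 8.86 and 8.59 in control wings. Its 24h values were 8.67, 8.71, 5.96 and 10.07 in dE2F1+dDP, 8.45, 8.63, 8.63 and 8.83 in Cbt and 8.74, 8.36, 5.84 and 9.14 in control wings. Its 36h values were 9.25, 8.88, 8.98 and 9.29 in dE2F1+dDP, 8.98, 8.54, 9.46 and 9.64 in Cbt and 9.34, 9.63, 10.51 and 8.86 in control wings. In dE2F1+dDP wings its mean was lower at 36h (9.10) than at L3 (9.32), so it showed no gain over the larval level there. The L3 and 36h means were 8.85 and 9.16 in Cbt and 8.795 and 9.58 in control wings. The lowest values, 5.96 and 5.84, are those of the 2 arrays that stood apart, and the range of the other 24h arrays of those groups overlapped with those of L3 and 36h. In control wings the arrays of 36h lay above those of 24h without overlap for the other 6 transcripts, as they did for 232 of the 242 onset transcripts and 9.99% of all transcripts, on arrays that the rule used. Without control replicate 3 of 24h its control difference between 36h and 24h was 0.84, against 1.56 with all arrays, which is below the 1.5 required.

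For 6 of the 7 transcripts the passing of the 1.5 required of control rested on single arrays of 24h. With each control array of 24h left out in turn, FBtr0085242 alone kept a control difference of at least 1.5 in all 4 cases (1.73 to 2.20). The lowest values of the other 6 were 0.84 for FBtr0084207 and 1.23 to 1.41 for the remaining 5, and FBtr0077172 had the widest range, up to 2.86. Leaving out each of the 20 arrays of the rule in turn gave 4 to 13 members. Of the 7, FBtr0077172 and FBtr0085242 were chosen in 19 of these 20 cases and FBtr0084207 in 10. Without control replicate 2 or 4 of 24h the rule chose 11 and 13 transcripts, 4 and 5 of them among the 7, and without control replicate 1 or 3 of 36h it chose 4 each time, 4 and 3 of them among the 7. With group medians in place of means it chose 7 transcripts, of which 3 were among the original ones.

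The step after 24h, which the rule required to be large in control only, was smaller in both transgene lines for most of the 7. The difference between 36h and 24h was smaller than in control for 6 of the 7 transcripts in dE2F1+dDP wings and for 6 of 7 in Cbt wings, with medians of 1.20 in dE2F1+dDP, 0.87 in Cbt and 1.76 in control wings. It was at least 1.5 for 2 of the 7 in each transgene line. In Cbt wings the exception was FBtr0085242, and in dE2F1+dDP wings it was FBtr0075437, at 1.90 (SE 0.45) against 1.86 (SE 0.45) in control wings. The smallest steps were 0.52 in dE2F1+dDP wings for FBtr0076953 and 0.51 in Cbt wings for FBtr0083927. At 24h the means lay above control for 4 of 7 in dE2F1+dDP wings (median 0.33) and for 6 of 7 in Cbt wings (median 0.61). Members were required to be low in control at 24h and high at 36h, with no such step required of the transgene lines. The choice by itself favours smaller steps and higher 24h means in the transgene lines than in control. No test is given for these differences.

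**Figure D3:**
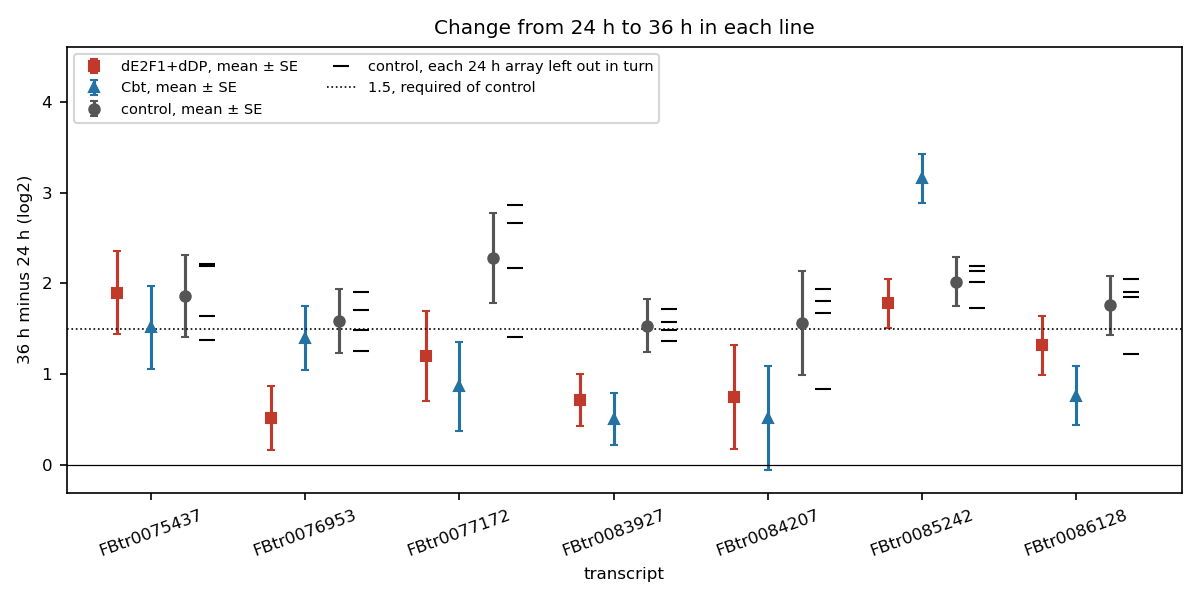
For each transcript on the x axis the difference between 36h and 24h is shown on the y axis in log2 units, as the mean with its standard error for dE2F1+dDP, Cbt and control. Dashes give the control difference with each 24h array left out in turn and the dotted line the 1.5 required of control. FBtr0085242 alone keeps all its dashes above the line.

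The change between L3 and 24h within each transgene line was measured on arrays that the rule did not use, and it asks whether these transcripts had begun to rise before 36h. Its standard error and p-value also draw on the spread within the other groups, whose arrays the rule used. In Cbt wings 4 of the 7 rose and none fell, where 17.0% of all transcripts rose and 14.3% fell (limma, adjusted p under 0.05 over all transcripts). In dE2F1+dDP wings 0 of the 7 rose and 0 fell, where 8.05% of all transcripts rose and 9.19% fell, and 0 of the 7 had an unadjusted p under 0.05. The median change of the 7 was 0.96 in Cbt wings and 0.25 in dE2F1+dDP wings, against -0.02 and -0.05 over all transcripts. In control wings, whose arrays the rule used, the change was positive for 5 of the 7 with a median of 0.59, among them 0.85 for FBtr0075437, 0.67 for FBtr0083927 and 0.60 for FBtr0086128, and no test is given for it. With the slide in the model 2 of the 7 rose in Cbt wings, where 1890 of all 15473 transcripts did. Without dE2F1+dDP replicate 3 of 24h, or without both arrays that stood apart, 1 of the 7, FBtr0083927, rose in dE2F1+dDP wings. Over all 15473 transcripts 1252 and 1334 rose in these settings. On slide 6 the change in dE2F1+dDP wings ran from -0.44 for FBtr0084207 to 0.87 for FBtr0077172. Of all transcripts that passed in Cbt wings 54.3% were higher at 24h, and 38.6% were after centring each array on its median, a setting under which all transcripts had a median change of -0.20 in place of -0.02.

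Whether the change by 24h differed between the lines was tested directly. The change in Cbt wings minus that in dE2F1+dDP wings passed for 0 of the 7 (limma), where 3.72% of all transcripts were higher and 2.13% lower. The unadjusted p was under 0.05 for 2 of them, FBtr0075437 and FBtr0086128. The interval of that difference ran from 0.19 to 2.93 for FBtr0075437 (95%, estimate 1.56, adjusted p = 0.201) and from 0.03 to 1.99 for FBtr0086128 (estimate 1.01, adjusted p = 0.265). For FBtr0077172 it ran from -0.997 to 1.97 and so spanned both signs.

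Set against each other at 24h, Cbt and dE2F1+dDP wings differed past the threshold for FBtr0085242 alone. It was the 1 member lower in Cbt, and 0 were higher, where 14.5% of all transcripts were higher and 8.91% lower. Of the transcripts called here 61.9% were higher in Cbt, and 29.4% were after median centring, where the median over all transcripts was -0.26 in place of 0.04. The next largest differences were 0.67 for FBtr0086128 (95% interval -0.00034 to 1.33, limma adjusted p = 0.153) and 0.56 for FBtr0075437 (interval -0.37 to 1.49, adjusted p = 0.445). At L3 none of the 7 was higher and none was lower in Cbt wings (limma), where 1.32% of all transcripts were higher and 0.743% lower, and 1 had an unadjusted p under 0.05. All 7 had the lower mean in Cbt than in dE2F1+dDP wings at L3, with a median difference of -0.35. For FBtr0077172 (-0.0025) and FBtr0083927 (-0.084) the difference was small and changed sign with single arrays left out. The mean was higher in Cbt for 7678 of all 15473 transcripts (median -0.0022) and for 129 of the 235 other onset transcripts (median 0.03). When only the Cbt and dE2F1+dDP groups of L3 were modelled, FBtr0075437 (-1.005, limma adjusted p = 0.0352) and FBtr0076953 (-0.70, adjusted p = 0.0165) passed. In that setting 563 of all 15473 transcripts were lower in Cbt.

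**Figure D4:**
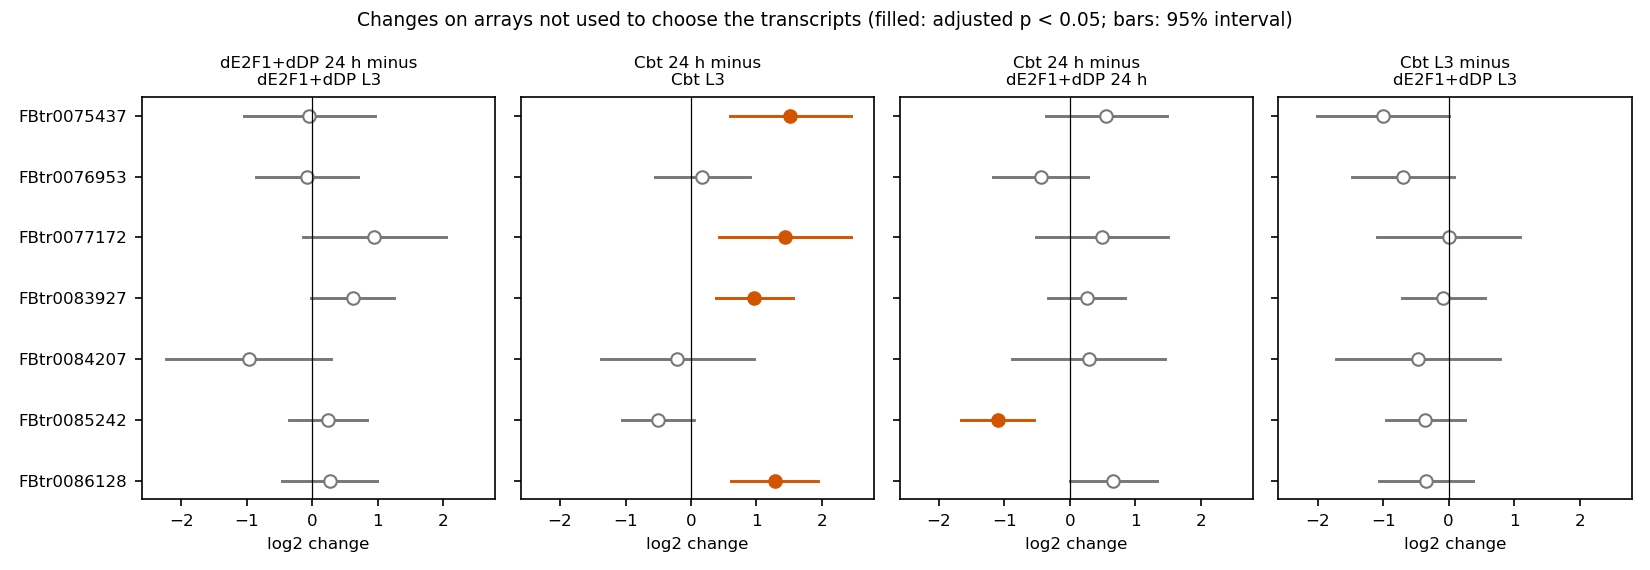
Each panel shows one comparison of arrays that were not used to choose the transcripts, with the log2 change on the x axis and the 7 transcripts down the page. Points are estimates and bars 95% intervals, whose width draws on the spread within all 9 groups. Filled points passed at an adjusted p under 0.05. In the Cbt panel 4 points are filled, in the panel of Cbt against dE2F1+dDP at 24h that of FBtr0085242 is, and in the other panels none is.

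The onset transcripts with the lower levels in dE2F1+dDP wings at 36h were counted beside the 7 on the same unused arrays. Of the 202 onset transcripts that stood at least 1 below control in dE2F1+dDP wings at 36h, 54 rose and 8 fell between L3 and 24h in Cbt wings, with a median change of 0.32. Of the same 202, 25 rose and 22 fell in dE2F1+dDP wings, with a median of 0.02. Over all transcripts 17.0% rose and 14.3% fell in Cbt wings, and 8.05% rose and 9.19% fell in dE2F1+dDP wings. At 24h 55 of the 202 were higher and 8 lower in Cbt than in dE2F1+dDP wings. Of the 7, 0 were higher and 1 was lower, where 14.5% of all transcripts were higher and 8.91% lower. Whether the 7 differ from the 202 or from all transcripts in these shares was not tested.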

How the data were processed

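Cy3-labelled wing RNA was measured on NimbleGen arrays of 1 colour. The authors deposited an RMA intensity per transcript and array, and the deposited series table holds these as log2 values, per the submitters' processing notes and the values themselves (largest difference 5e-09). The file header also names the probes per transcript and an error of other, unstated scale, which no result uses. Array medians differ in the deposited values, so these do not share one distribution, and centring on the median was tried as an alternative. Its version, the arrays run together and the annotation release were not given in the sources used here. The number of arrays limits the precision. No background level was used.

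One limma 3.58.1 model (R 4.3.3) with 9 group means was fitted to 35 arrays and 15473 transcripts, with 26 residual and 2.86 prior degrees of freedom. Calls are at a Benjamini-Hochberg adjusted p under 0.05. Python 3.11.15 with pandas 2.3.3, numpy 2.4.6 and matplotlib 3.10.9 served the rule, tables and figures, and the limma step was tested on simulated data. The 5 tested contrasts compare only L3 and 24h arrays of the transgene lines, none of which enters the rule. Their standard errors and p-values also draw on the spread within the other groups, whose arrays the rule used. They are thus not fully independent of the choice of the transcripts. For FBtr0077172 the change in Cbt wings by 24h had an SE of 0.49, and of 0.24 with only the compared groups modelled. Alternatives were median centring, the slide or the replicate number as a term, array weights, only the compared groups, omission of the dimmest 25% of transcripts and each array left out. Leaving out both arrays that stood apart was added after seeing the data. The 9 numbers that up to 4 array names share were assumed to mark slides, which no label or header states.

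The members and lists were chosen with earlier results of these data known. The naming rule allowed 4 unnamed IDs, and all 7 are given because they are the subject, chosen after their values were seen. Of 15473 IDs 44 matched the RefSeq gene table of Release 6, 17 under 1 gene, and none is a member. Of 233 genes in 14 lists, markers of cell types included, 1 matched an ID, so neither list counts nor a marker check of the wing are given. Replicates are called independent in the labels, which do not say whether they came from separate crosses or dissections, so p-values measure the spread between these samples.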

Additional observations from a re-analysis of the deposited data

Results flagged for a closer look

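Within 56 groups of 4 arrays, 2 values lay apart from the other 3 of their group by Dixon's test, where chance gives about 1 in 20 groups. Both belong to FBtr0076953 in dE2F1+dDP wings. At 24h replicate 4 stood at 9.10 and the other 3 arrays at 6.85 to 7.23. Without it the change by 24h in dE2F1+dDP wings was -0.58 (limma adjusted p = 0.239), against -0.08 with it. At 36h replicate 1 stood at 7.80 and the others at 8.18 to 8.26. The cause of either was not tested.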

How the results depend on the processing

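Over the 5 tests of the 7 transcripts and their alternatives 515 values kept direction and side of the threshold, 7 newly passed, 7 no longer passed and 31 changed sign. The cause of these changes was not tested, except that leaving out arrays also leaves fewer of them. By 24h 1 transcript rose in dE2F1+dDP wings with array weights (2164 of all 15473) and 1 without the 2 arrays that stood apart (1334). With each array left out 0 to 1 did. In Cbt wings 2 rose with the slide (1890). At L3 2 were lower in Cbt with array weights (1065) and 2 with only the compared groups (563). The rule chose 2 transcripts at a distance of 0.3 and 4 to 13 with each array left out. All sign changes were of differences that passed in neither setting. With median centring the changes were 0.028 for FBtr0075437 (dE2F1+dDP by 24h), -0.0048 for FBtr0076953 (Cbt by 24h), and -0.040 for FBtr0083927 and -0.013 for FBtr0084207 (Cbt minus dE2F1+dDP at 24h). With the slide they were 0.052 for FBtr0075437 and 0.15 for FBtr0076953 (dE2F1+dDP), and -0.25 (Cbt) and -0.39 (between the line changes) for FBtr0076953. With array weights they were 0.35 for FBtr0075437 and -0.085 for FBtr0085242 (dE2F1+dDP) and -0.054 for FBtr0084207 (at 24h). Without the 2 arrays that stood apart they were 0.45 for FBtr0075437 and 0.044 for FBtr0076953 (dE2F1+dDP), -0.032 for FBtr0083927 and -0.51 for FBtr0084207 (at 24h), and -0.042 for FBtr0084207 (between the line changes). With each array left out, the change by 24h in dE2F1+dDP wings ran from -0.38 to 0.45 for FBtr0075437 and from -0.58 to 0.17 for FBtr0076953. The difference at 24h ran from -0.70 to 0.055 for FBtr0076953, from -0.032 to 0.39 for FBtr0083927 and from -0.51 to 0.86 for FBtr0084207. At L3 it ran from -0.14 to 0.082 for FBtr0077172 and from -0.23 to 0.10 for FBtr0083927, and between the line changes from -0.042 to 1.33 for FBtr0084207. Deviations of samples with the same replicate number correlated at 0.304, 0.260, 0.036 and 0.434 between Cbt and dE2F1+dDP at 24h, at 0.113, 0.125 and 0.069 at L3, and at -0.024 to 0.076 within a line. Not every pair of any comparison was above 0.1, so the numbers were not taken to pair samples, though 3 of 4 pairs at 24h were above it. With the replicate number as a block 4 of the 7 rose in Cbt wings, 1 was lower in Cbt at 24h and 0 passed elsewhere, as without it. With it 2690 of all transcripts rose in Cbt wings and 1452 were lower in Cbt at 24h. Over all transcripts the calls between lines at L3 numbered 320, against 98 with the slide, 2089 with array weights, 1143 with only the compared groups and 489 without the 2 arrays, and 173 to 212 without a dE2F1+dDP array of L3. For the difference between the line changes they numbered 905, against 242 with the slide, 2382 with array weights and 572 without dE2F1+dDP replicate 2 of L3. For dE2F1+dDP by 24h they numbered 2668, against 5021 with array weights and 1776 with only the compared groups, and for the lines at 24h 3615 against 1968 with only the compared groups. The share of higher calls after centring was 47.8% in place of 64.1% at L3 and 38.7% in place of 63.6% for the line changes. All 7 transcripts stayed in without the dimmest 25%. With 3 or 4 arrays a group, SEs within a line were 0.27 to 0.62. Changes such as -1.54 (FBtr0084207, dE2F1+dDP without 24h replicate 4) can be missed.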
